A study of Mus musculus with 4 samples.

Results

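The genes described here encode the adaptors and effectors that act directly below the tyrosine kinase Syk. They are *Blnk* and *Lcp2* (adaptors), *Plcg2* (a phospholipase), *Vav1*, *Vav2* and *Vav3* (exchange factors), *Prkcd* (a protein kinase C), and *Card9*, *Bcl10* and *Malt1* (a signalling complex). They were taken by symbol, and these 10 genes of the 54532 in the count table all passed the filter on low counts. Transcripts were measured by polyA RNA sequencing of tumor-associated macrophages (TAMs) from mice with NB9464 tumors, a murine neuroblastoma line with amplified *MYCN*. The comparison was between 2 libraries labelled SYK WT (M7 and M8) and 2 labelled SYK KO (M9 and M10). All mice were on a C57BL/6 background, 4 to 6 weeks old at injection, and received NB9464 cells under the skin without further treatment; tumors were collected on day 40. SYK KO mice carry floxed *Syk* together with LysM-Cre, a Cre recombinase driven by the lysozyme M gene, which is active in myeloid cells including neutrophils, and SYK WT mice were their controls. Beads against CD11b and F4/80 were used to collect the TAMs, although the sample labels also name bone marrow-derived macrophages as the source of the RNA and the series title names an adoptive transfer. Whether a library came from 1 mouse or from pooled mice is not given in the sources used here, so p-values measure only the spread between these libraries.

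Syk is recruited to receptors that carry an ITAM, a paired tyrosine motif found in Fc receptor and C-type lectin receptor complexes of macrophages. It phosphorylates SLP adaptors (BLNK and SLP-76, the product of *Lcp2*), which gather phospholipase C gamma and Vav proteins at the membrane. Phospholipase C gamma makes inositol trisphosphate, which releases calcium, and diacylglycerol, which activates protein kinase C; Vav proteins load Rac GTPases with GTP and so drive actin remodelling. Protein kinase C delta phosphorylates CARD9, and CARD9 then assembles with BCL10 and MALT1 into a complex that activates NF-kappaB.

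The libraries went against their labels at the deleted gene itself, so higher and lower refer throughout to what the labels call SYK KO. *Syk* was at 27.9 and 23.2 CPM (counts scaled to a common library total after TMM normalization, which sets the zero by the bulk of genes) in M7 and M8 and at 196 and 160 CPM in M9 and M10. It was 6.98-fold higher in the libraries labelled SYK KO (log2 fold change 2.80, standard error 0.194, adjusted p = 0.000674, quasi-likelihood test of edgeR, adjusted by Benjamini-Hochberg over 16451 genes). The table counts whole genes, so the floxed exons cannot be read on their own. Exchanged labels and a lower share of macrophages in the libraries labelled SYK WT cannot be told apart here, and the labels are not taken as established genotypes. Total counts ran from 20755886 to 23518045, and 3 counts, the smallest signal taken as detectable, corresponded to 0.109 to 0.163 CPM, a floor for counting error only. M10 stood apart with 15.9% of its counts in mitochondrial genes, against 2.2% to 6% in the other libraries. Each of 10 macrophage markers passed the test upward in M9 and M10 (summed level 776 and 1122 CPM in M8 and M7 against 5799 and 9212 CPM in M10 and M9). The same held for all 6 pan-leukocyte genes (225 and 281 against 2261 and 3041 CPM), all 5 T cell markers (0.61 and 0.911 against 6.94 and 8.83 CPM) and all 5 neutrophil markers tested (24.6 and 39.3 against 201 and 407 CPM). Dendritic cell markers were higher for 3 of 5 tested and B cell markers for 1 of 4 (summed level 1.59 and 1.82 against 9.08 and 9.59 CPM), whereas neither of the NK cell markers nor any of the 3 mast cell markers tested passed the test. Fibroblast markers were lower for 5 of 8 (12549 and 14444 against 4060 and 4959 CPM) and endothelial markers for 2 of 8, while 1 of 3 tested tumor markers was higher. Of the 7 tumor genes listed, 3 were at 0 counts in every library, *Th* and *Dbh* among them, whereas *Hand2*, named after its values were seen, was at 262, 301, 178 and 286 CPM in M7, M8, M9 and M10. Libraries were therefore also scaled to the macrophage markers or to the pan-leukocyte genes, neither of which contains any of the 10 genes, and this moved the median log2 fold change of all genes from 0.02 to -2.79 and -3.34. In these bulk libraries, more cells of a type and more RNA per cell cannot be told apart.

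The promoters of the 3 genes that changed most, *Blnk*, *Lcp2* and *Vav1*, are shown first, with that of *Vav3*, a paralog of *Vav1* that did not pass the test, beside them. The RefSeq table of GRCm38.p6 gave windows from 250 bases before to 50 after the start site for 9 of the 10 genes, all but *Malt1*. Capitals mark GAGGAA (a core bound by ETS factors such as PU.1) and GGGCGG (the Sp1 box), searched on both strands, so that they appear as TTCCTC and CCGCCC when they lie on the other strand. The windows are written 5′ to 3′ on the strand of the gene. *Blnk* is at chr19:40994172-40994471 on the minus strand, its start site lying 314 bases inside the GENCODE gene; *Lcp2* is at chr11:34046678-34046977, *Vav1* at chr17:57278850-57279149 and *Vav3*, by the first of its windows, at chr3:109340433-109340732, all on the plus strand.

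Blnk: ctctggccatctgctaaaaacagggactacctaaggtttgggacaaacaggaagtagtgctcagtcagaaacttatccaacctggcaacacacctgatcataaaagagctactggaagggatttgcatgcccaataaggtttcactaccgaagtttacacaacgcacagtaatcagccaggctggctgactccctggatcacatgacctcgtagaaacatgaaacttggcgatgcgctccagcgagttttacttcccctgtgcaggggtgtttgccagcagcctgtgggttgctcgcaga

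Lcp2: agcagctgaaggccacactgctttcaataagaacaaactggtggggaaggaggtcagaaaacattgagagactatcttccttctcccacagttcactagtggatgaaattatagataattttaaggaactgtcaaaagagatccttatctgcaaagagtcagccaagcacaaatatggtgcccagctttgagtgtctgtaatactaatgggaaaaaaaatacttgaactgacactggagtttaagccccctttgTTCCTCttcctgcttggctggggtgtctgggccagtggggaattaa

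Vav1: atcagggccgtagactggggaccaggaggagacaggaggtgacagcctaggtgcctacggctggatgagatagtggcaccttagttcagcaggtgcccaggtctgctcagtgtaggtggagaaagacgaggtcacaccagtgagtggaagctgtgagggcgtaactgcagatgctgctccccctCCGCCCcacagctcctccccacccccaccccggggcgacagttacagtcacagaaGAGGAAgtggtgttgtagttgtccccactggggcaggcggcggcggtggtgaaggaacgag

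Vav3: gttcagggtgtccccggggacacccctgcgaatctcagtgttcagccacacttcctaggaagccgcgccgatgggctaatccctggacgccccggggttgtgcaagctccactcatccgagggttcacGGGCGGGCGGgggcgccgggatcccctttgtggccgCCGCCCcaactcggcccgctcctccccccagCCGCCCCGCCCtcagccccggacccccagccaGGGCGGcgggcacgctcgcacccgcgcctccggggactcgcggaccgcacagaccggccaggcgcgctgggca

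*Vav1* held a GAGGAA just before its start site, and *Lcp2* held its reverse complement just after the start site. *Blnk* held no exact match to either motif, and other forms of the ETS core were not searched. GAGGAA was present in 28.3% of all 32851 RefSeq windows and in 3 of the 9 genes with a window, the other gene being *Vav2*. The *Vav3* window held 6 GGGCGG matches, some of them overlapping, and was 74.3% G and C, against 43.3% for *Lcp2*, 50% for *Blnk*, 61.7% for *Vav1* and a median of 52.7% over all windows. GGGCGG occurred in 35.7% of all windows and in 6 of the 9 genes. Of the other motifs searched, CACGTG (7.15% of all windows) was in 2 of the 9 genes, TATAAA (13.6%) in 2, and TGTGGT (16.8%) in 0. These matches describe letters only.

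With TMM scaling, 8 of the 10 genes passed the test (adjusted p under 0.05) as higher in SYK KO and 0 as lower, against 22.7% higher and 16.7% lower among all genes tested. Their median log2 fold change was 1.11, beside 0.02 for all genes. The median of the 10 genes was 1.11 without M7, 1.16 without M8, 0.93 without M9 and 1.26 without M10. For all genes it was 0.04, 0.03, -0.06 and -0.07 in the same fits. Library totals alone left 5 of the 10 genes higher, against 10.2% of all genes tested. With DESeq2, 6 of the 10 genes passed as higher, against 19.5% of all genes tested. Under TMM, *Blnk*, *Lcp2* and *Vav1* formed a group of their own at 11.3-fold to 13.4-fold. *Card9* and *Plcg2* followed at 4.12-fold and 2.66-fold, and *Prkcd*, *Malt1* and *Bcl10* lay between 1.51-fold and 1.74-fold. *Vav2* and *Vav3* did not pass the test. The direction was not the same under every scaling: scaled to the macrophage markers, 0 of the 10 genes were higher and 6 lower (0.76% higher and 87.3% lower among all genes), and scaled to the pan-leukocyte genes, 0 were higher and 7 lower (0.456% and 91.2%).

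**Figure D1:**
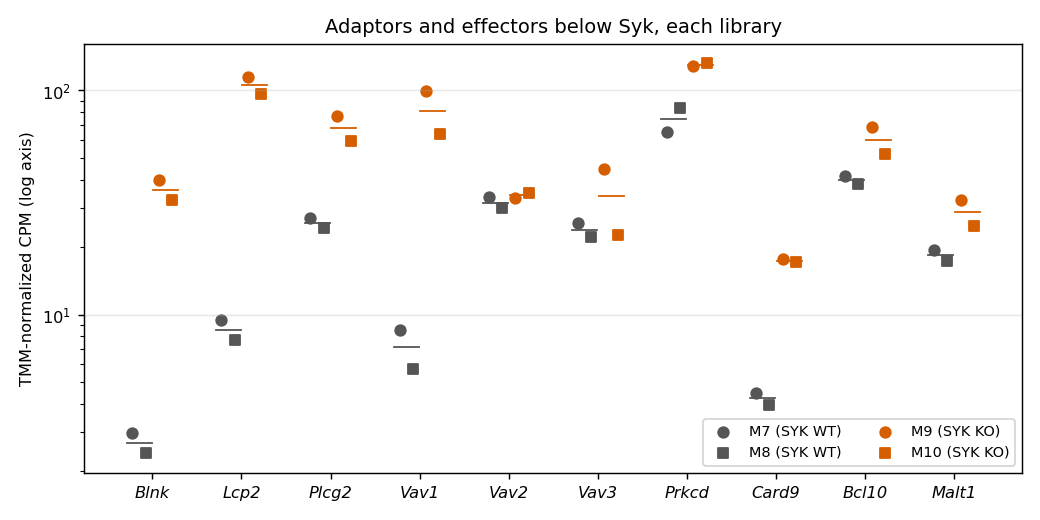
Level of each of the 10 genes in TMM-normalized CPM (log axis) in each library; grey, SYK WT (M7 circles, M8 squares); orange, SYK KO (M9 circles, M10 squares); lines, mean of 2 libraries. The libraries labelled SYK KO lie above those labelled SYK WT for every gene except *Vav2* and *Vav3*, whose groups overlap. The share of all genes without overlap was not computed, and 22.7% of all genes tested passed the test as higher. Scaled to macrophage or pan-leukocyte markers, only *Blnk*, *Lcp2* and *Vav1* keep a positive log2 fold change.

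The adaptors *Blnk* and *Lcp2* were both far higher in the libraries labelled SYK KO. *Blnk* (ENSMUSG00000061132, chr19:40928927-40994535, minus strand, protein coding), the linker best known from B cells and also used by macrophages, was at 2.95 and 2.4 CPM in M7 and M8 and at 39.8 and 32.4 CPM in M9 and M10 (81, 59, 819 and 595 counts). Both libraries labelled SYK WT were low and the groups were far apart. The means were 2.68 ± 0.39 and 36.1 ± 5.19 CPM (SD, n = 2), and the log2 fold change was 3.75 (standard error 0.243, 95% interval 3.16 to 4.33, adjusted p = 0.000626, edgeR). *Lcp2* (ENSMUSG00000002699, chr11:34046920-34092295, plus strand), which encodes SLP-76, the SLP adaptor of T cells, platelets and myeloid cells, was at 9.41 and 7.73 CPM in M7 and M8 and at 115 and 96.4 CPM in M9 and M10. Again the groups did not overlap. Its means were 8.57 ± 1.18 and 106 ± 13.3 CPM (SD, n = 2), with a log2 fold change of 3.62 (standard error 0.199, 95% interval 3.14 to 4.10, adjusted p = 0.000486, edgeR). These changes stood at percentiles 98.3 and 98.0 of all genes tested, and leaving out any of the libraries gave 3.51 to 3.91 for *Blnk* and 3.40 to 3.77 for *Lcp2*, all past the threshold. T cells and B cells also use these adaptors. All 5 T cell markers but only 1 of 4 tested B cell markers were higher in the same libraries, and their part in the result was not tested. *Lcp2* shares 282 exon bases with *4930469K13Rik* on the opposite strand, and whether the counting used strand is not given in the sources used here.

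The balance between the adaptors differed little between the labelled groups. Per base of exon (TPM, counts over summed exon length scaled to a common total), *Lcp2* exceeded *Blnk* 4.28-fold and 4.33-fold in M7 and M8, and 3.89-fold and 4.00-fold in M9 and M10. The ratio was thus slightly lower in both libraries labelled SYK KO, with a difference of -0.13 on the log2 scale, whereas the counting error of a single library's ratio was between 0.0585 and 0.215. *Blnk* made up 18.9% and 18.8% of the pair in M7 and M8 and 20.4% and 20% in M9 and M10. A ratio within a library does not depend on how libraries are scaled. By the longest coding transcript the share of *Blnk* was 35.3% and 35% in M7 and M8 and 37.5% and 36.9% in M9 and M10. *Lcp2* thus led in every library by either length, but the size of its lead depends on the length used. Ratios are given with their spread, and no test was run on them.

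*Plcg2* (ENSMUSG00000034330, chr8:117498291-117635142, plus strand), the phospholipase C gamma isoform of blood cells, was at 26.9 CPM in M7 and 24.4 in M8. It stood at 77 CPM in M9 and 59.6 in M10, so that the groups did not overlap. The change on the log2 scale was 1.41 (standard error 0.188, 95% interval 0.96 to 1.87, adjusted p = 0.00296, edgeR) and lay between 1.13 and 1.60 when any of the libraries was left out, past the threshold each time. With the macrophage scaling *Plcg2* was lower instead, at -1.43 (adjusted p = 0.00717, edgeR), but above the median of all genes, -2.79. *Plcg1*, the widely expressed isoform, had the opposite pattern, with 207 and 210 CPM in M7 and M8 and 67.9 and 75.5 CPM in M9 and M10 (log2 fold change -1.54, standard error 0.158, adjusted p = 0.00148, edgeR). The macrophage and pan-leukocyte scalings put it lower as well, as they did 87.3% and 91.2% of all genes tested. The ratio of *Plcg2* to *Plcg1* per base of exon was 0.238 and 0.212 in M7 and M8 and 2.08 and 1.44 in M9 and M10, so the prevailing isoform was *Plcg1* in the former and *Plcg2* in the latter. In percent, *Plcg2* made up 19.2 and 17.5 of the pair in M7 and M8 and 67.5 and 59 in M9 and M10. Divided by the longest coding transcript instead of all exons, the share was 13.4% and 12.1% against 57.4% and 48.4%. In M10 the isoforms were then close to equal, with *Plcg1* slightly ahead at 51.6%, so the prevailing isoform in M10 depends on the length used.

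The Vav family split by member. *Vav1* (ENSMUSG00000034116, chr17:57279100-57328031, plus strand), the member restricted to blood cells, was at 8.57 and 5.74 CPM in M7 and M8 and reached 99 and 63.7 CPM in M9 and M10. Its groups were widely separated, with means of 7.15 ± 2.0 and 81.3 ± 25 CPM (SD, n = 2). This is a log2 fold change of 3.50 (standard error 0.308, 95% interval 2.76 to 4.25, adjusted p = 0.000972, edgeR), between 3.06 and 3.82 with each library left out. *Vav2* (ENSMUSG00000009621, chr2:27262104-27427033, minus strand), which is expressed in most tissues, was at 33.5, 29.8, 33.1 and 34.9 CPM in M7, M8, M9 and M10. The groups overlapped, and the log2 fold change of 0.10 had a 95% interval from -0.29 to 0.50 (adjusted p = 0.64, edgeR). *Vav3* (ENSMUSG00000033721, chr3:109340653-109685698, plus strand), the other broadly expressed member, was at 25.5, 22.2, 44.8 and 22.7 CPM. Only M9 was high, and M10 lay between the libraries labelled SYK WT. The log2 fold change of *Vav3*, 0.50 (95% interval -0.27 to 1.27, adjusted p = 0.251, edgeR), became -0.16 without M9 (adjusted p = 0.53) and 0.92 without M10 (adjusted p = 0.000225), so its sign and its call rested on single libraries.

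Within each library the order of the family turned over. *Vav2* exceeded *Vav1* 2.08-fold in M7 and 2.77-fold in M8 per base of exon, and stood at 0.178 and 0.292 of *Vav1* in M9 and M10. For *Vav3* the ratio to *Vav1* was 1.83 and 2.37 in M7 and M8 and 0.278 and 0.219 in M9 and M10. *Vav1* therefore made up 20.4% and 16.3% of the family in the libraries labelled SYK WT and 68.7% and 66.2% in those labelled SYK KO. The differences in log2 ratio, -3.39 for *Vav2* and -3.08 for *Vav3*, compare with a spread within groups of 0.411 and 0.255 (SD). Fibroblast markers, from cells that do not express *Vav1*, were lower in the libraries labelled SYK KO as given above, and their part in the turn of the family was not tested.

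**Figure D2:**
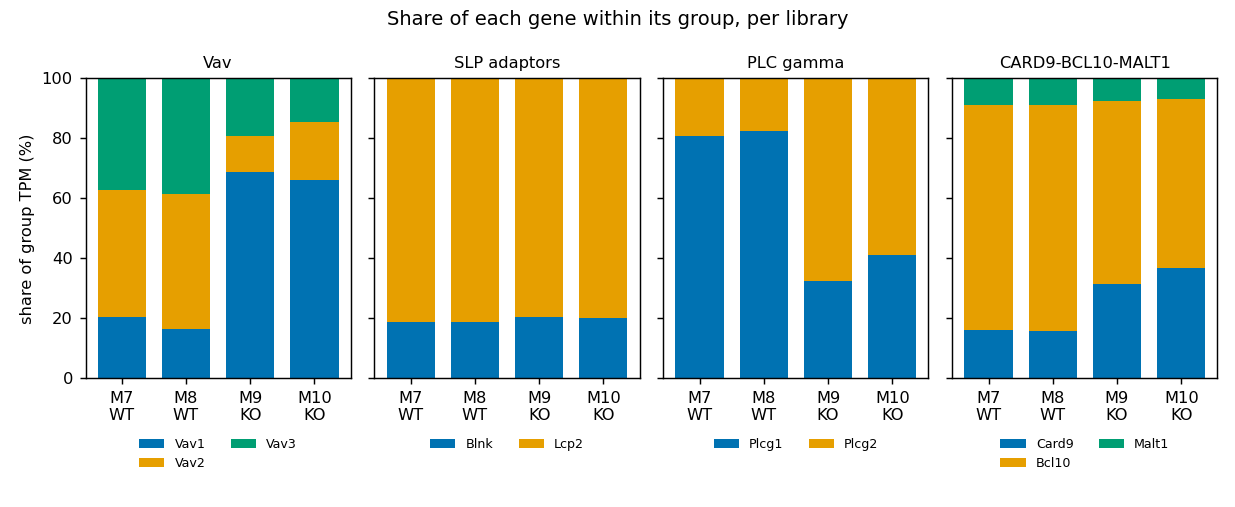
Share (%) of each gene in the summed TPM of its group in each library, for the Vav family, the SLP adaptors, phospholipase C gamma and the CARD9-BCL10-MALT1 complex. *Vav1* takes 16.3% to 20.4% of its family in SYK WT and 66.2% to 68.7% in SYK KO, and *Plcg2* 17.5% to 19.2% against 59% to 67.5%, whereas *Blnk* stays between 18.8% and 20.4% of the SLP adaptors.

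*Prkcd* (ENSMUSG00000021948, chr14:30595354-30626210, minus strand), a protein kinase C that responds to diacylglycerol without needing calcium, had 65.3 and 83.9 CPM in M7 and M8 and 128 and 132 CPM in M9 and M10. The groups did not overlap, but the libraries labelled SYK WT were spread more widely (74.6 ± 13.2 CPM) than those labelled SYK KO (130 ± 2.38 CPM, SD, n = 2). On the log2 scale the difference was 0.80 (standard error 0.178, 95% interval 0.37 to 1.23, adjusted p = 0.0153, edgeR). The call was lost without M7 (0.63, adjusted p = 0.182) and without M8 (0.98, adjusted p = 0.0594), and with library totals alone (0.27, adjusted p = 0.284). Scaled to the macrophage markers, *Prkcd* was lower (-2.05, adjusted p = 0.000249, edgeR), as were 87.3% of all genes, and the median of all genes was -2.79. Of the 8 other protein kinase C isoforms, 2 were higher and 3 lower under TMM scaling. *Prkcb*, the calcium-dependent isoform of lymphocytes and myeloid cells, was at 1.93 and 1.46 CPM in M7 and M8 and at 26.8 and 23.6 CPM in M9 and M10 (log2 fold change 3.88, adjusted p = 0.000674, edgeR), and *Prkch* was higher by 1.46. Among those lower were *Prkcz* (-1.02) and *Prkci* (-0.69), atypical isoforms that do not need diacylglycerol, while *Prkca* (-0.47), *Prkce* (-0.23) and *Prkcq* (-0.19) did not pass the test. Scaled to the macrophage markers, *Prkch* was lower (-1.33) and *Prkcb* kept its sign without passing the test (1.09, adjusted p = 0.123). *Prkcd* thus exceeded *Prkcb* per base of exon 46.6-fold and 79.1-fold in M7 and M8 and 6.61-fold and 7.69-fold in M9 and M10, a difference of -3.09 on the log2 scale with *Prkcd* ahead in every library.

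The CARD9-BCL10-MALT1 complex changed unevenly. *Card9* (ENSMUSG00000026928, chr2:26352176-26360918, minus strand), the myeloid scaffold of the complex, was at 4.48, 3.95, 17.7 and 17.1 CPM in M7, M8, M9 and M10. The libraries of a group were close together and the groups far apart. On the log2 scale *Card9* differed by 2.04 (standard error 0.247, 95% interval 1.45 to 2.64, adjusted p = 0.00221, edgeR) and by 1.93 to 2.14 when any of the libraries was left out. *Card9* shares 87 exon bases with *Gm13562* on the opposite strand. *Bcl10* (ENSMUSG00000028191, chr3:145922804-145934356, plus strand), the adaptor that polymerizes on CARD9, was at 41.6, 38.2, 68.4 and 52 CPM. M9 was the highest library and M10 was nearer to those labelled SYK WT, without overlap. The log2 fold change of *Bcl10* was 0.59 (standard error 0.187, 95% interval 0.14 to 1.04, adjusted p = 0.0456, edgeR). *Malt1* (ENSMUSG00000032688, chr18:65430938-65479067, plus strand), the protease of the complex, followed the same order, with 19.5, 17.3, 32.4 and 24.8 CPM. For *Malt1* it was 0.64 (standard error 0.206, 95% interval 0.14 to 1.14, adjusted p = 0.0493, edgeR). Both calls lay at the edge of the threshold: each was lost without M7, M8 or M9 (adjusted p from 0.157 to 0.314 for *Bcl10* and from 0.155 to 0.337 for *Malt1*) and with DESeq2 (adjusted p = 0.0822 and 0.0986). Scaled to the macrophage markers, *Bcl10* and *Malt1* were lower by -2.25 and -2.20 and *Card9* did not pass the test (-0.76, adjusted p = 0.252, edgeR). Under this scaling 87.3% of all genes were called lower, and their median, -2.79, was below the values of these 3 genes.

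Relative to each other, *Malt1* and *Bcl10* stayed together while *Card9* moved. The ratio of *Malt1* to *Bcl10* per base of exon was 0.118, 0.114, 0.12 and 0.121 in the 4 libraries, a difference of 0.05 on the log2 scale beside a counting error of 0.0678 to 0.0844 in a single library. The ratio of *Bcl10* to *Card9* was 4.66 and 4.86 in M7 and M8 and 1.94 and 1.53 in M9 and M10. *Card9* went from 16.1% and 15.6% of the complex's transcripts to 31.5% and 36.8%. Among the paralogous scaffolds, which also nucleate BCL10, *Card14*, known from keratinocytes, was at 11.5 and 15.6 CPM in M7 and M8 and at 2.86 and 5.67 CPM in M9 and M10. It was lower by -1.67 (adjusted p = 0.0187, edgeR) under TMM scaling. Both marker scalings put it lower as well, as they did most genes tested. *Card10*, the scaffold of epithelial and endothelial cells, was at 2.3, 2.16, 1.99 and 2.23 CPM. It did not pass the test under TMM scaling (-0.08, adjusted p = 0.909, edgeR).

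Compared per base of exon, the 10 genes took a different order in the 2 labelled groups. In the libraries labelled SYK WT the mean levels ran from *Prkcd* (52.6 TPM) through *Bcl10* (34.3), *Plcg2* (23.4), *Vav2* (18), *Vav3* (15.6), *Vav1* (7.63), *Lcp2* (7.55), *Card9* (7.22) and *Malt1* (4) to *Blnk* (1.76). M7 and M8 held the same order except for *Vav1*, *Lcp2* and *Card9*, which were at 9.28, 8.43 and 7.82 TPM in M7 and at 5.99, 6.67 and 6.62 TPM in M8. In the libraries labelled SYK KO the order was *Lcp2* (46.3 TPM), *Prkcd* (45), *Vav1* (43.8), *Plcg2* (31.2), *Bcl10* (25.9), *Card9* (14.6), *Blnk* (11.8), *Vav3* (11.3), *Vav2* (9.44) and *Malt1* (3.11). Here M9 and M10 disagreed on the order of the first 3 genes (59, 56.8 and 50.8 TPM for *Vav1*, *Lcp2* and *Prkcd* in M9, and 28.6, 35.8 and 39.3 TPM in M10). They also disagreed on the place of *Vav3*, which was at 16.4 TPM in M9, above *Blnk* and *Vav2*, and at 6.26 TPM in M10, below them. The order of the other genes was the same in both libraries, with *Plcg2* ahead of *Bcl10* and *Bcl10* ahead of *Card9*. TPM is scaled to the library total without TMM, so these means order genes within a group. Of the genes called higher under TMM, *Prkcd*, *Bcl10* and *Malt1* had a lower mean TPM in the libraries labelled SYK KO. Levels between genes depend on the length used: by the longest coding transcript, a choice made with the values already known, the highest genes in the libraries labelled SYK KO were *Prkcd* (67 TPM), *Bcl10* (46.2) and *Lcp2* (43.2). *Malt1* is affected most in this way, with 18040 bases of summed exons against 5331 in its longest coding transcript.

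Set against *Syk* in the same library, only *Blnk*, *Lcp2* and *Vav1* were higher in the libraries labelled SYK KO. *Syk* itself was at percentile 95.4 of log2 fold change among all genes tested, so most genes were lower relative to it. The ratio of *Blnk* to *Syk* per base of exon was 0.165 and 0.162 in M7 and M8 and 0.317 and 0.316 in M9 and M10. *Lcp2* went from 0.708 and 0.701 of *Syk* to 1.24 and 1.26, and *Vav1* from 0.78 and 0.629 to 1.28 and 1.01. These are differences of 0.95, 0.83 and 0.70 in log2 ratio, beside a spread within groups (SD) of 0.0155, 0.0171 and 0.233. The first 2 of these SDs are smaller than the counting error of a single library's ratio, which was 0.0553 to 0.197 for *Blnk* and 0.0373 to 0.121 for *Lcp2*. The other 7 genes were lower relative to *Syk*, by -0.76 for *Card9*, -1.40 for *Plcg2*, -1.99 for *Prkcd*, -2.17 for *Malt1*, -2.22 for *Bcl10*, -2.38 for *Vav3* and -2.69 for *Vav2*. Relative to the median of all genes under TMM, these 7 genes lay between 0.09 (*Vav2*) and 2.03 (*Card9*). The groups did not overlap for any of the 10 ratios, but *Syk* itself was 6.98-fold higher. How many of all genes would show such a separation from *Syk* was not computed.

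Scaling to the macrophage markers brought *Syk* close to 0, so its split of the 10 genes is by arithmetic that of the ratios to *Syk* and adds no separate evidence. Scaled to the macrophage markers, *Blnk* (0.93, 95% interval -0.28 to 2.15, adjusted p = 0.145), *Lcp2* (0.81, -0.22 to 1.84, adjusted p = 0.134) and *Vav1* (0.68, -0.37 to 1.72, adjusted p = 0.22, edgeR throughout) kept positive log2 fold changes that did not pass the test. *Syk* was then at -0.02 (95% interval -1.02 to 0.98, adjusted p = 0.973). Scaled to the pan-leukocyte genes, the values were 0.39, 0.26 and 0.13, none past the threshold (adjusted p = 0.378, 0.415 and 0.713), and *Syk* was at -0.56 (adjusted p = 0.0662). *Blnk*, *Lcp2* and *Vav1* thus differed between groups by about as much as the marker genes themselves did, within intervals that still allow a change of more than 1 log2 unit under the macrophage scaling. *Vav2* was at -2.69 (adjusted p = 1.83e-06) under the macrophage scaling, close to the median of all genes. The scalings shift all genes together: relative to the median of all genes, *Lcp2* was at 3.61 under TMM and 3.60 under each marker scaling, and *Vav2* at 0.09, 0.10 and 0.10.

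**Figure D3:**
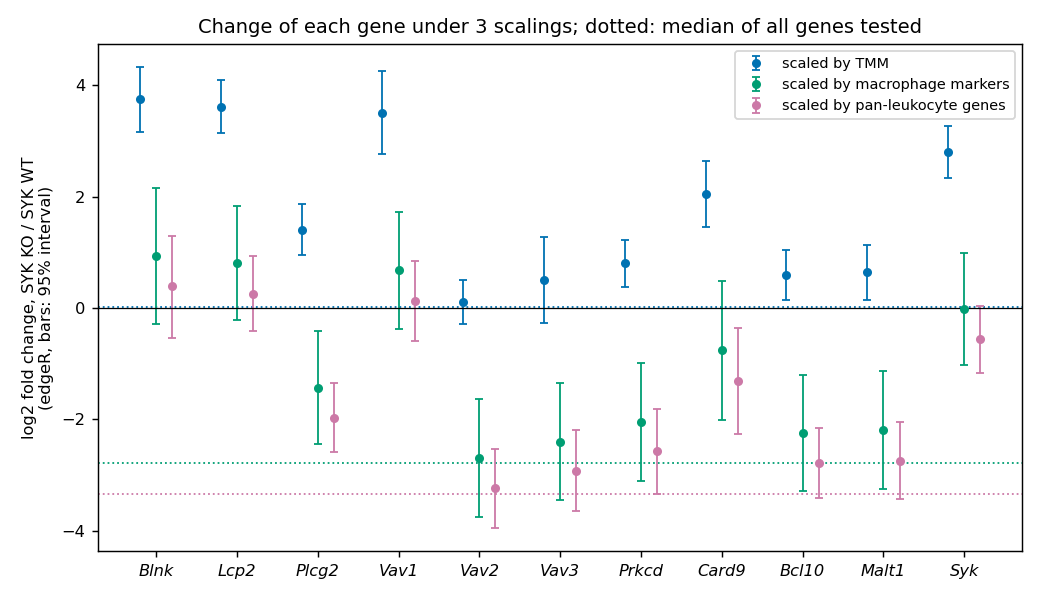
Log2 fold change (SYK KO over SYK WT, edgeR, bars 95% interval) of the 10 genes and *Syk* under TMM scaling (blue), scaling to 10 macrophage markers (green) and scaling to 6 pan-leukocyte genes (pink); dotted lines, median of all genes tested under each scaling (0.02, -2.79 and -3.34). *Blnk*, *Lcp2* and *Vav1* stay above 0 throughout with intervals that cross 0 under the marker scalings, and the other 7 genes turn negative under both.

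The wider pathway was described by 8 lists of neighbouring genes, 76 in all, of which 74 passed the filter. Under TMM scaling 28 were higher in the libraries labelled SYK KO (37.8%, against 22.7% of all genes tested), 13 were lower (17.6%, against 16.7%) and 33 did not pass the test, and the median log2 fold change was 0.23. With scaling to the macrophage markers 1 was higher and 60 lower (81.1%, against 87.3% of all genes), and scaled to the pan-leukocyte genes 0 were higher and 66 lower (89.2%, against 91.2%), so the directions that follow are for TMM scaling. Of the other adaptors of the signalosome, 5 of 11 tested were higher and 2 lower. *Grap2*, the adaptor that joins SLP-76 to LAT, had the largest change of the list, from 0.583 and 0.855 CPM to 14.4 and 19.3 CPM (log2 fold change 4.55, adjusted p = 0.000859, edgeR), and was the gene still higher under the macrophage scaling (1.75, adjusted p = 0.0321). *Lat2*, the LAT-like adaptor of B cells and myeloid cells, was higher by 3.10 (adjusted p = 0.000834), whereas *Lat* itself was at 4, 15, 8 and 7 counts and *Clnk*, a further SLP family adaptor, at 1, 5, 2 and 9 counts, and neither was tested. The lowest of the list was *Plcg1*, described above.

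Below Vav, 7 of 10 GTPases of the Rac type and their effectors were higher and 1 was lower, the median log2 fold change being 1.18. *Rac2*, the Rac GTPase of blood cells, was highest, at 12.6 and 9.6 CPM in M7 and M8 and 163 and 140 CPM in M9 and M10 (log2 fold change 3.77, adjusted p = 0.000486, edgeR). *Rac3*, known from the nervous system, was lowest, at 23.2 and 27.2 CPM against 6.41 and 8.66 CPM (-1.74, adjusted p = 0.00353). Under the macrophage scaling *Rac2* was at 0.97 (adjusted p = 0.0676) and *Rac3* was lower, as were 87.3% of all genes. In the calcium and NFAT branch 5 of 14 genes were higher and 1 lower, from *Itpr3*, an inositol trisphosphate receptor (-1.37, adjusted p = 0.00199), to *Orai1*, the calcium channel of the plasma membrane (2.62, adjusted p = 0.00083). Of the 4 Rasgrp exchange factors, which diacylglycerol recruits to activate Ras, 2 were higher, led by *Rasgrp4* (2.87, adjusted p = 0.000898), and *Rasgrp3* had the lowest value (-0.45, adjusted p = 0.378).

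Around the CARD9-BCL10-MALT1 complex, of 16 partners and IKK genes, 4 were higher (25%) and 3 lower (18.8%), with a median of -0.01, shares near those of all genes. They ran from *Chuk*, which encodes IKK alpha (-0.92, adjusted p = 0.00674), to *Casp8*, a caspase that takes part in the complex (1.88, adjusted p = 0.0035). Of 8 genes whose proteins MALT1 cleaves or binds as substrates, 2 were higher and 2 lower. *Tnfaip3*, which encodes the NF-kappaB inhibitor A20, was at 48.5 and 35.3 CPM in M7 and M8 and 257 and 168 CPM in M9 and M10 (2.34, adjusted p = 0.00203, edgeR), and *Rc3h2*, which encodes Roquin-2, had the lowest value (-0.98, adjusted p = 0.00823). Relative to the median of all genes, these lists were at -0.02 for the partners under all 3 scalings and at 1.15 or 1.16 for the GTPases and effectors below Vav.

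**Figure D4:**
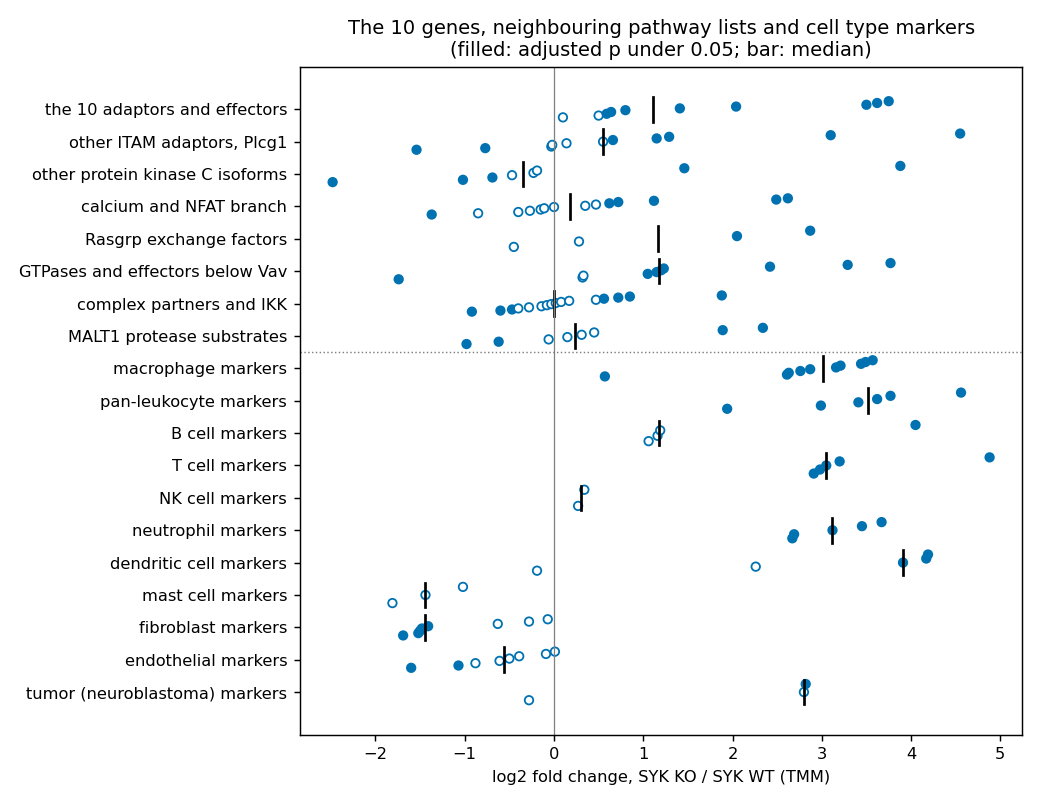
Log2 fold change (SYK KO over SYK WT, TMM scaling) of the 10 genes, neighbouring pathway lists (without the CARD scaffolds) and the cell type marker lists; each point is a gene, filled where its adjusted p was under 0.05, and black bars are medians. The 10 genes run from 0.10 to 3.75 with a median of 1.11, between the medians of the complex partners (-0.01) and of the macrophage markers (3.01); scaled to macrophage markers the medians of these 3 lists are -1.74, -2.81 and 0.18.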

How the data were processed

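RNA sequencing counts of 4 TAM libraries, 2 per genotype as the sample labels give them, were analysed. The authors mapped reads to mm10 and deposited whole-number read counts per Ensembl gene, not normalized; their processing notes name STAR 2.6.1d, SAMtools 1.9, Picard 2.26, Salmon 1.4.0 and MultiQC 1.11. How whole counts were made from Salmon's estimates, and whether strand was used, is not given in the sources used here. The study's methods describe single reads in triplicate, and the labels describe paired reads of 150 bases.

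Symbols, positions and exon lengths came from GENCODE M21 (54495 of 54532 genes matched). Counts were analysed in R 4.3.3 with edgeR 4.0.16 (filterByExpr, TMM, glmQLFit and glmQLFTest, genotype as the only term), Benjamini-Hochberg adjustment over 16451 genes and a threshold of 0.05; the fit was tested on simulated data. TMM factors were 1.22, 1.19, 0.876 and 0.787. Counts of the libraries of a group differed by more than sampling noise (chi-square per degree of freedom 50.6 and 168). TPM was computed from counts over summed exons. The labels give no pairing or batch.

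The 10 genes and all lists were chosen with earlier results of these data known. All 10 genes were named, with *Syk*, the paralogs and the highest and lowest gene of each list, of which a few are not reported here; *Lat2* and the ratios of *Plcg2* to *Plcg1*, *Prkcd* to *Prkcb* and *Malt1* to *Bcl10* were chosen after their values were seen. Alternatives were RLE size factors, library totals, scaling to macrophage or pan-leukocyte markers, no filter beyond 1 count over all libraries, a minimum of 10 counts per library, leaving out mitochondrial and rRNA-like genes, the Wald test of DESeq2 1.42.0 and leaving out each library.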

Additional observations from a re-analysis of the deposited data

How the results depend on the processing

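The number of the 10 genes higher in the libraries labelled SYK KO, 8, was 5 with library totals and 0 with each marker scaling, and 5 to 9 with each library left out; the number lower, 0, was 6 with the macrophage scaling and 7 with the leukocyte scaling. Among all genes the share higher was 10.2% to 24.5% in the other alternatives and 8.58% to 28.9% with a library left out. Signs turned for *Vav2* (-0.43) and *Vav3* (-0.01) with library totals, and for *Vav3* without M9 (range -0.16 to 0.92 over the libraries left out). With the macrophage scaling the log2 fold changes that turned were *Plcg2* -1.43, *Card9* -0.76, *Bcl10* -2.25, *Malt1* -2.20, *Vav2* -2.69, *Vav3* -2.40 and *Prkcd* -2.05; with the leukocyte scaling they were -1.97, -1.31, -2.79, -2.74, -3.24, -2.92 and -2.57. The marker scalings move the zero of every gene by construction; for the other changes the cause was not tested. *Bcl10* and *Malt1* also lost their calls with RLE factors (adjusted p = 0.07 and 0.0708), at least 10 counts (0.0519 and 0.0609) and without mitochondrial and rRNA-like genes (0.0729 and 0.0759, edgeR). No paired analysis was possible because the groups share no replicate number. With 2 libraries per genotype, a permutation test cannot give an exact p below 0.333.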
